A study of Mus musculus with 4 samples.

Results

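Solute carriers are membrane proteins that move sugars, amino acids, ions, metals, lipids and nucleotides across cell and organelle membranes, and their mouse gene symbols begin with Slc. Genes with such a symbol were taken if they had at least 1000 UMIs (unique molecular identifiers, each counting 1 captured RNA molecule) summed over all cells kept by the authors, apart from Slc12a2 and Slc18a1, which were set aside by name. This left 99 of 389 genes with an Slc symbol, and 31053 genes were listed in all. The UMI totals over these same cells chose the members, so the totals are given below as a description. Cells came from crypts of the mouse duodenum, were positive for the red reporter TOM, and were sequenced as 2 libraries per genotype. WT mice carried Atoh1CreER-T2 and R26RTom. APC-KO mice carried these with Apcfl/fl, that is, with both alleles of Apc floxed, although the genotype label of those libraries gives the driver as Atoh1Cre. All mice received 2 tamoxifen injections (1 mg/mL) with 24 h between them, and tissue was taken 12 h after the second. Since Atoh1 drives the recombinase, the reporter marks cells of the secretory lineage and their progeny, and the sort on TOM set which cells entered. Age, sex and the animal behind a library were not given in the labels, so p-values measure only the spread between these libraries.

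In the intestine, carriers on the apical and basolateral membranes take up nutrients and move electrolytes, and these are best known from absorptive enterocytes. Secretory cells depend on another set, on the endoplasmic reticulum and Golgi, which supplies nucleotide sugars, sulfate donors, ATP and zinc for making and modifying secreted protein. Most carriers of the Slc25 family sit in the inner mitochondrial membrane and link the cytosol with oxidative metabolism. Apc is a brake on Wnt signalling, the pathway that maintains crypt stem cells.

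The authors' tables kept 4814 and 3821 WT cells and 356 and 6243 APC-KO cells (replicates 1 and 2 in each case), with 3009636 to 27285079 UMIs per library and a median of 3973 to 8370 UMIs per cell. APC-KO replicate 1 was thus by far the smallest library, with fewer than 20 cells in 9 of the 12 cell types named by the authors, and results that rest on it are also given without it. Kept barcodes shared by a pair of libraries numbered 1 to 8. Apc itself stood at 87.2 and 77.9 CPM (a gene's share of the UMIs of the same sum, in the usual counts-per-million scale) in WT and at 88.1 and 88.1 CPM in APC-KO. These are counts of RNA 3' ends and the labels do not give the floxed part, so they do not check the labels. Cell type names are used as deposited. A list of defining markers was highest in WT in the type of its own name for ISC, ENTERO-PRO, GOBLET, PANETH, EC, NON-EC, EEC-PRE and TUFT, whereas the list for SEC-PRO was highest in GP, at 789 CPM. Lists of T cell, other leukocyte, mesenchymal, endothelial and enteric neuron or glia genes summed to a mean over the WT libraries of at most 29.2 CPM in any type. In what follows, EC, NON-EC and EEC-PRE are called endocrine types, GP, GOBLET-PRE and GOBLET goblet types, PANETH and PANETH-PRE Paneth types, and ISC, SEC-PRO and ENTERO-PRO progenitor types. This grouping was made after the values had been seen.

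Together the 99 members held 399718 of 75975541 kept UMIs, or 0.526%. The 10 with the most UMIs held 43.2% of the members' total. They were Slc25a5 with 43976 UMIs and Slc25a3 with 38930 UMIs, the mitochondrial ADP/ATP and phosphate carriers, then Slc26a2 (sulfate), Slc12a8, Slc38a2 (neutral amino acids), Slc35b1 (ATP for the endoplasmic reticulum), Slc35a3 (UDP-N-acetylglucosamine), Slc50a1 (sugar), Slc39a7 (zinc) and Slc25a39 (mitochondrial glutathione), which ranged from 18386 down to 7716 UMIs. UMI totals were not scaled by gene length, and no order of expression is read from them. Apart from proteins only named after a carrier, classes were assigned by family, so a class name need not hold for each member. The 22 members of the Slc25 family, called mitochondrial carriers here, held 34.4% of member UMIs. The 12 members of the Slc35 family, the nucleotide sugar class, held 11.8%. The 14 carriers of amino acids and peptides held 14.4%, the 9 of inorganic ions 11.7% and the 16 of metals 11.4%. The other classes were organic ions with 7 members, sugars with 6, lipids, choline and acetyl-CoA with 6, phosphate and vesicular organic anions with 2, and vitamins and nucleosides with 2. The remaining 3 members, Slc4a1ap, Slc9a3r1 and Slc7a6os, encode proteins named after a carrier and not carriers. Slco3a1 is an organic anion transporter whose symbol also meets the rule. Among those just inside the limit were Slc27a4 with 1000 UMIs and Slc7a6 with 1023, and just outside it lay Slc10a5 with 959, Slc41a1 with 937 and Slc5a3 with 913.

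Of 20 textbook intestinal carriers, 5 reached the limit. These were Slc3a2 (the heavy chain of several amino acid exchangers) with 3622 UMIs, Slc7a7 (cationic amino acid exchange) with 1760, Slc5a1 (sodium-coupled glucose uptake) with 1704, Slc39a4 (zinc uptake) with 1649 and Slc11a2 (iron uptake) with 1107. The other 15 lay below it. Slc10a2, the ileal bile acid carrier, had 33 UMIs over all 15234 cells, the proton-coupled folate carrier Slc46a1 had 91, the basolateral glucose carrier Slc2a2 had 128, the sodium-proton exchanger Slc9a3 had 134 and the peptide carrier Slc15a1 had 161. The serotonin carrier Slc6a4 had 179, and the vesicular monoamine carrier Slc18a2 had 549. In a library of sorted crypt cells, fewer cells of a type and less RNA per cell cannot be told apart in such a sum.

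RefSeq promoter windows (GRCm38.p6) were found for 78 of the 99 members, and the 250 bases before the start are shown for 4 of them. The first 3 belong to members whose levels were restricted to few cell types, and Slc25a1 was the member whose genotype call, described below, had groups without overlap and more than 1 UMI in every library. Each window was free of annotated exons. Capitals mark matches, on either strand, to CACGTG (an E-box), to the CCAAT box and to ATCAAAG (a core motif of TCF factors). The windows were chr2:29802384-29802633 (+) for Slc27a4, chr5:33103969-33104218 (+) for Slc5a1, chr11:55204090-55204339 (+) for Slc36a1 and chr16:17928220-17928469 (-) for Slc25a1.
Slc27a4: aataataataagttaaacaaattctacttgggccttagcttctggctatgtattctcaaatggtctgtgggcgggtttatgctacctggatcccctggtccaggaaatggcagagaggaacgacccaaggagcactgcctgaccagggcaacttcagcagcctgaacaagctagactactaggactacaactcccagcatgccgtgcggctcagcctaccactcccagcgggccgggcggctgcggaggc
Slc5a1: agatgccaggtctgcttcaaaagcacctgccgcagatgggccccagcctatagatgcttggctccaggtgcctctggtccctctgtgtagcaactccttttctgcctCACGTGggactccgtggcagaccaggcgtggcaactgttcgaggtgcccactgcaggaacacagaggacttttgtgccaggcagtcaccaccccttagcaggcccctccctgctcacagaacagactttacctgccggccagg
Slc36a1: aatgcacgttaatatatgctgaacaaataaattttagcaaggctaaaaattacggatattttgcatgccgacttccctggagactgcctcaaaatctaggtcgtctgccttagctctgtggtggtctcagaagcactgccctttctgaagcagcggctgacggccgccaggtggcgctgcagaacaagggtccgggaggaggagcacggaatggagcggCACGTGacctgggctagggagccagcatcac
Slc25a1: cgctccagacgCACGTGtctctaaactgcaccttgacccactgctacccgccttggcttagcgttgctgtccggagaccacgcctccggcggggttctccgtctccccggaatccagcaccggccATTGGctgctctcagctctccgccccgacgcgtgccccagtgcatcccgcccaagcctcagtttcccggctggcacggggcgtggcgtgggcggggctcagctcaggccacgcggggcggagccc
The windows of Slc5a1, Slc36a1 and Slc25a1 held 1 E-box each, that of Slc25a1 also held 1 CCAAT box on the other strand, and that of Slc27a4 held none of the motifs. The E-box occurred in 13 of the 111 windows of members (11.7%), against 6.02% of all 32851 windows. The TCF core occurred in 6 of the members' windows (5.41%), against 3.21% of all, and the CCAAT box in 27 (24.3%), against 33.9%. The motifs were chosen after values had been seen, and a match is a description of the letters.

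Levels by cell type were compared in the WT libraries as CPM of the summed cells. The type names were derived from the same cells, so no test applies. A member was taken to mark a type if its lower WT value there was at least 2 times its higher WT value in every other type. This held for 3 of 99 members, Slco3a1 in TUFT, Slc25a35 in EC and Slc27a4 in ENTERO-PRO, beside 4.35% of the 7198 genes with at least 1000 UMIs. Most members were thus graded over types: the median ratio of the highest to the lowest type mean was 6.89. This ratio is in plain CPM, where PANETH was the lowest type for 45 members, against 4 with TMM factors (explained below). In 64 members both WT libraries had the same highest type, and in 48 of these APC-KO replicate 2 had it too. The highest type was a goblet type for 33 members (33.3%, against 11.9% of the 7198 genes) and a progenitor type for 26 (26.3%, against 27.5%). It was an endocrine type for 24 (24.2%, against 42.5%), a Paneth type for 8 (8.08%, against 3.74%) and TUFT for 8 (8.08%, against 14.5%). These shares depended on scaling. In WT the goblet marker list made up 413900 and 451300 CPM of GOBLET. The Paneth list made up 400100 and 386500 CPM of PANETH, and the part of either in these shares was not tested. With TMM factors, which centre most genes on no difference, goblet types led for 42 members (42.4%, against 25.4% of genes) and Paneth types for 20 (20.2%, against 14.2%). Progenitor types led for 21 (21.2%, against 29.2%), endocrine types for 12 (12.1%, against 24.4%) and TUFT for 4 (4.04%, against 6.78%). In all, 71 members kept their leading group.

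**Figure D1:**
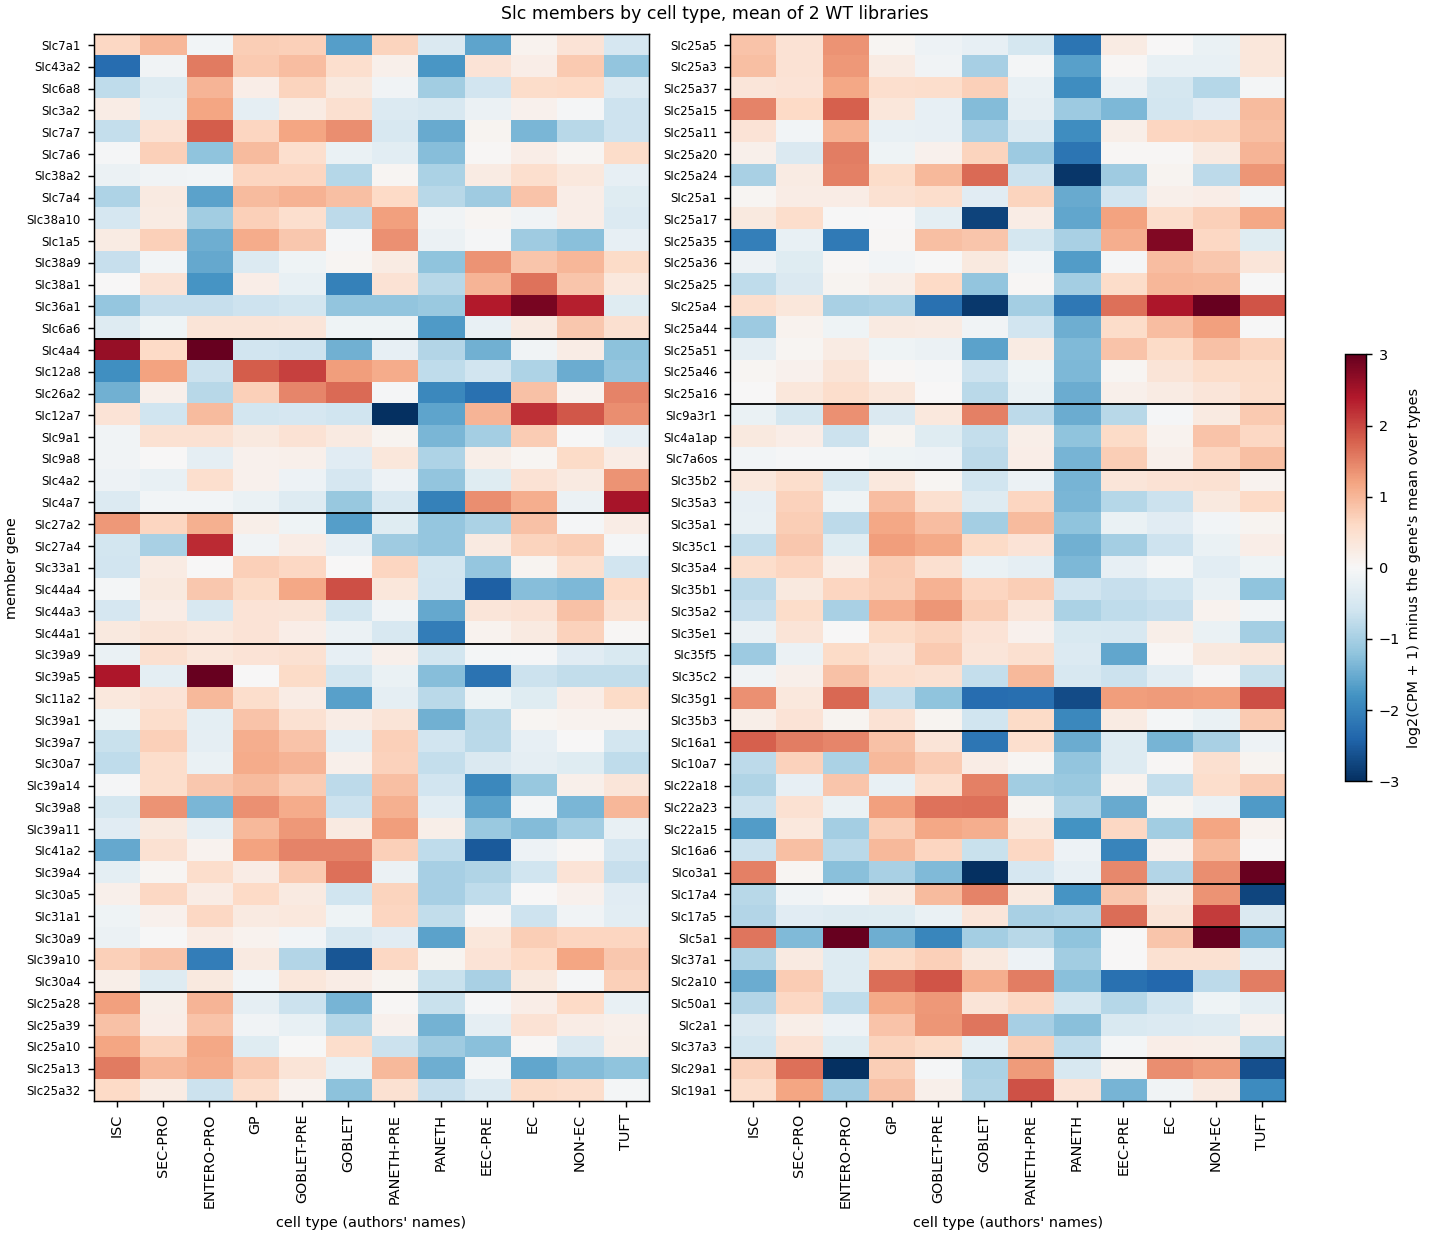
Heat map of 98 of the 99 members (vertical axis, grouped by substrate class between black lines) over the 12 cell types (horizontal axis), as log2(CPM + 1) of the mean of both WT libraries minus the gene's mean over types. Few members are high in 1 type alone, and the PANETH column is pale to blue for most, 45 of the 99 members having their lowest level there in CPM but 4 after TMM scaling.

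ENTERO-PRO, whose marker list holds absorptive enterocyte genes, had the most members at their highest level in plain CPM, 15. With TMM factors it again had 15, but GOBLET had 27. Slc27a4, which encodes a fatty acid transport protein of enterocytes (chromosome 2, 29802634 to 29817522, plus strand, GRCm38), reached 50.05 and 60.8 CPM there in WT and 67.3 CPM in APC-KO replicate 2. Its next highest type was NON-EC, with a WT mean of 19.1 CPM, and the lower ENTERO-PRO value was 2.40 times the highest value elsewhere. It was seen in 26 of 116 ENTERO-PRO cells of WT replicate 1 (22.4%, 95% Wilson interval 15.8 to 30.8%) and in 24 of 575 ISC cells (4.17%), at median depths of 6680 and 6249 UMIs. After thinning each cell to 2000 UMIs these shares were 8.70% and 1.80%. Intervals on shares cover counting error only.

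Slc5a1 was high in both ENTERO-PRO, at 186 and 156 CPM in WT, and the endocrine type NON-EC, at 153 and 134 CPM. APC-KO replicate 2 had 125 CPM in each. In ISC it had 39.1 and 51.1 CPM, in EC 23.1 and 28.9, and in GOBLET-PRE 3.76 and 2.00. The values of the sodium-coupled glucose carrier in this endocrine type thus lay just below those in ENTERO-PRO in plain CPM, and the other types were lower. With TMM factors the means were 166 in ENTERO-PRO and 93.6 in NON-EC. Slc39a5, a zinc importer, had 89.6 and 132 CPM in ENTERO-PRO and 42.6 and 49.7 CPM in ISC. Outside the progenitor types its highest WT value was 7.01 times lower than its lower ENTERO-PRO value. Slc4a4, a sodium bicarbonate cotransporter, had the same pattern, with 92.2 and 102 CPM in ENTERO-PRO, 68.9 and 73.8 in ISC and a ratio of 7.05. Slc7a7, Slc43a2, Slc3a2 and Slc6a8, carriers of amino acids or creatine, also had their highest WT mean in ENTERO-PRO, but with TMM factors all of them except Slc43a2 were highest in GOBLET, and the amino acid and peptide carriers led by a progenitor type went from 5 to 1. Slc43a2 had 92.2 and 80.3 CPM there, and 6.71 and 3.55 CPM in ISC. Slc29a1, a nucleoside carrier, was low in ENTERO-PRO, at 0 and 2.17 CPM, while it had 46.4 and 58.0 CPM in SEC-PRO.

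Among endocrine types, Slc25a35, a mitochondrial carrier of unsettled substrate on chromosome 11 (68968131 to 68974365, plus strand), reached 160 and 158 CPM in EC in WT and 148 CPM in APC-KO replicate 2. Its next highest mean was 48.8 CPM, in EEC-PRE. With TMM factors the ratio to the nearest type fell from 2.83 to 1.41 and that type became GOBLET. The gene overlaps Rangrf on the opposite strand over 1882 bases, and whether strand was used in counting was not given in the sources used here, so its level is uncertain. A UMI was seen in 37.7% of EC cells of WT replicate 1 and 38.9% of those of WT replicate 2 (33.3 to 44.8%), against 2.61% and 2.63% of ISC cells, which were sequenced deeper. Other types lay nearer, with 22.7 and 16.3% in GOBLET, 20.77 and 18.85% in GOBLET-PRE and 15.5 and 18.46% in EEC-PRE.

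Slc36a1, a proton-coupled amino acid carrier of lysosomes, was shared by the endocrine types. It had 131 and 119 CPM in EC, 95.6 and 86.4 in EEC-PRE and 88.1 and 87.2 in NON-EC. Its highest WT value in any other type was 14.1 CPM, in TUFT, and APC-KO replicate 2 repeated the split with 70.0 to 85.6 CPM in endocrine types and at most 14.1 elsewhere. Slc38a9, a lysosomal arginine sensor, and Slc17a5, the lysosomal exporter of sialic acid, were also highest in endocrine types. For Slc38a9 the split was weaker, and with TMM factors its mean was 30.2 in EEC-PRE and 25.2 in GOBLET. Slc17a5 stood at 105 and 96.0 CPM in NON-EC, 83.5 and 66.6 in EEC-PRE, and 24.8 and 35.3 in EC. Slc38a1, a glutamine carrier, had 268 and 275 CPM in EC, against 17.3 and 24.1 CPM in GOBLET. Slc12a7, a potassium-chloride cotransporter, had 81.4 and 65.2 CPM in EC and no UMI in the PANETH-PRE cells of either WT library.

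The ADP/ATP carriers Slc25a4 and Slc25a5, which are close paralogs, had different patterns. Slc25a4 (chromosome 8, 46206797 to 46211284, minus strand) had 382 and 422 CPM in NON-EC, 191 and 226 in EC and 122 and 163 in TUFT, but 4.93 and 3.54 in GOBLET. Slc25a5 (chromosome X, 36795651 to 36798807, plus strand) had 1301 and 1485 CPM in ENTERO-PRO, 998 and 991 in ISC, 474 and 470 in NON-EC and 103.7 and 133 in PANETH. Slc25a4 was thus led by endocrine types and Slc25a5 by ENTERO-PRO and ISC, in both WT libraries and in APC-KO replicate 2. How reads shared by the paralogs were counted was not given in the sources used here.

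TUFT was the highest type of 8 members, or of 4 with TMM factors. Slco3a1 (chromosome 7, 74275419 to 74554780, minus strand) had 126 and 132 CPM there in WT and 162 in APC-KO replicate 2. ISC followed with 21.6 and 26.2 CPM in WT, and GOBLET cells gave no UMI in either WT library or in APC-KO replicate 2. In shares of cells, 32.9% of 231 TUFT cells of WT replicate 1 had a UMI (27.2 to 39.2%), 39.02% of 123 in WT replicate 2 and 34.1% of 276 in APC-KO replicate 2. With cells thinned to 2000 UMIs these became 20.2%, 22.7% and 28.9%. Slc4a7, a sodium bicarbonate cotransporter, had 288 and 389 CPM in TUFT, 133 and 184 in EEC-PRE and 127 and 131 in EC. Slc4a2, which exchanges chloride for bicarbonate, had 67.1 and 72.4 CPM in TUFT and a mean of 38.4 in the next type, ENTERO-PRO.

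**Figure D2:**
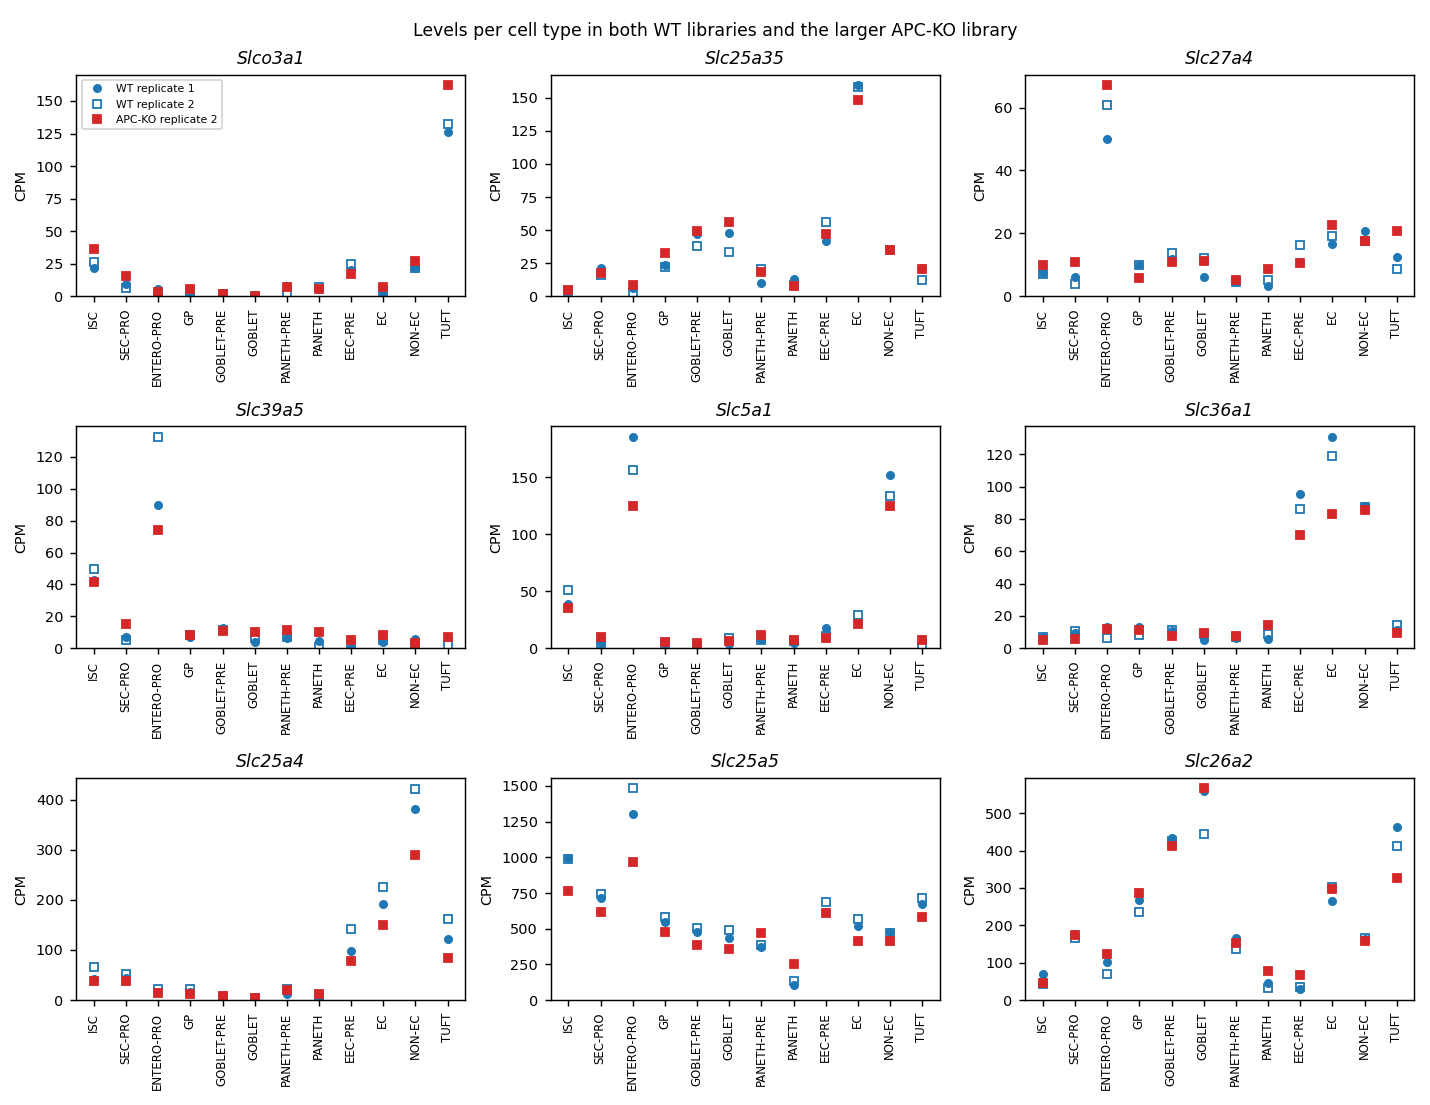
CPM (vertical axis, linear, from 0) of 9 members in each of the 12 cell types (horizontal axis), with 1 point per library: WT replicate 1 as filled blue circles, WT replicate 2 as open blue squares, APC-KO replicate 2 as red squares. APC-KO replicate 1, with 5 to 184 cells per type, is not drawn. Slco3a1, Slc25a35 and Slc27a4 each rise in 1 type, Slc36a1 in 3 endocrine types, and Slc25a4 and Slc25a5 follow different types.

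Members highest in a goblet type came from several classes, among them carriers of sulfate, nucleotide sugars, sugars and metals. Amino acid and peptide carriers did so in 3 of 14 cases in plain CPM and in 7 with TMM factors. Slc26a2, the sulfate carrier needed for sulfation, had 558 and 445 CPM in GOBLET, 434 and 426 in GOBLET-PRE and 269 and 237 in GP, and also 462 and 412 in TUFT. ISC had 69.7 and 42.6 CPM. Slc12a8, of the cation-chloride cotransporter family, had 375 and 406 CPM in GOBLET-PRE and 335 and 328 in GP, against 30.9 and 19.9 CPM in ISC. Of the 12 members of the nucleotide sugar class, 8 were highest in a goblet type, or 7 with TMM factors. Slc35a2 (UDP-galactose) had 86.2 and 84.4 CPM in GOBLET-PRE and 22.2 and 19.1 in ISC. Slc35c1 (GDP-fucose) had 87.0 and 96.2 CPM in GP and 23.6 and 21.3 in ISC. Slc35a1 (CMP-sialic acid) had 101 and 110 in GP, 84.4 and 98.4 in PANETH-PRE and 18.5 and 26.9 in GOBLET. With TMM factors its highest mean was 102.3 in PANETH-PRE, beside 100.7 in GP. Slc35b1 had 236 and 244 CPM in GOBLET-PRE, 196 and 196 in GP, 191.5 and 199 in PANETH-PRE and 63.9 and 70.2 in ISC.

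Of the 16 metal carriers, 8 were highest in a goblet type (7 with TMM factors). Slc39a7, which releases zinc from the endoplasmic reticulum, had 173 and 193 CPM in GP, and Slc30a7, which loads zinc into the Golgi, had 83.2 and 85.5 there. In ISC these were 52.5 and 54.6, and 20.4 and 24.1, CPM. Slc39a4 differed from them in being highest in GOBLET itself, with 51.8 and 59.5 CPM against 27.9 and 32.5 in GOBLET-PRE. With TMM factors Slc39a4, Slc44a4 (choline carrier family), Slc22a18 and Slc17a4 reached 2-fold in GOBLET over every other type. Among 6 sugar carriers, 4 were highest in a goblet type. Slc2a1, the widespread glucose carrier, had 43.1 and 41.05 CPM in GOBLET, and Slc50a1 had 188 and 231 CPM in GOBLET-PRE.

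Mitochondrial carriers had another distribution, in that 11 of 22 were highest in a progenitor type (10 with TMM factors) and 8 in an endocrine type (5 with TMM factors). The summed class had 3348 and 3765 CPM in ENTERO-PRO, 2624 and 2732 in ISC, 1196 and 1258 in GOBLET and 434 and 527 in PANETH. These sums are plain CPM. Slc25a5 (1301 and 1485 CPM) and Slc25a3 (1043 and 1255 CPM) made up most of the sum in ENTERO-PRO. Slc25a15 (ornithine) had 75.1 and 86.9 CPM in ENTERO-PRO and 59.8 and 71.7 in ISC, against 9.42 and 7.20 in EEC-PRE. Slc25a24, which carries ATP-magnesium for phosphate, had 113 and 118 CPM in GOBLET, near its 92.2 and 111 in ENTERO-PRO. In ISC it had 18.7 and 16.3 CPM. A goblet type led 1 mitochondrial carrier in plain CPM and 5 with TMM factors.

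**Figure D3:**
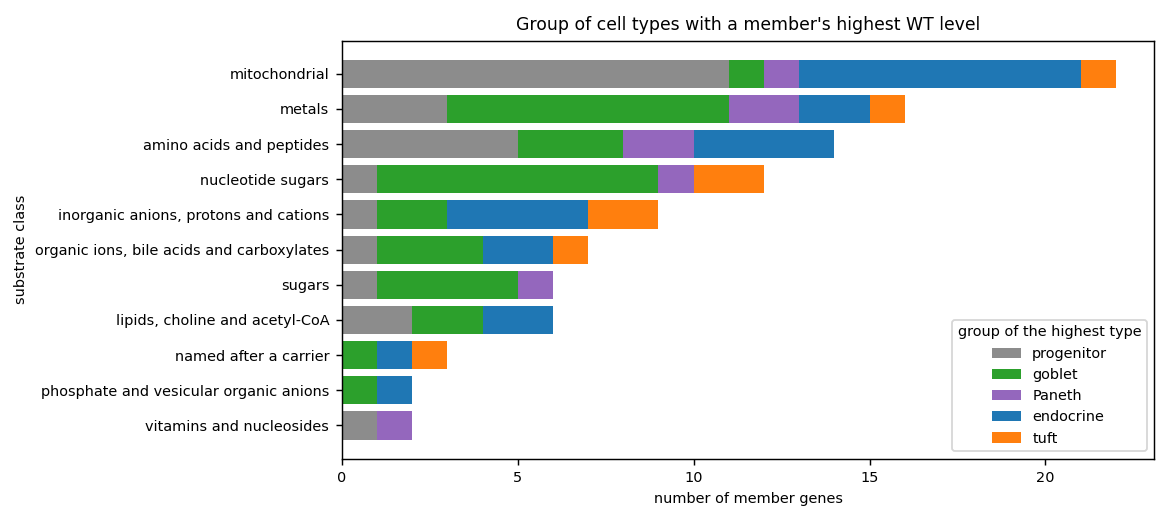
Number of members (horizontal axis) in each substrate class (vertical axis), coloured by the group of cell types in which the member's mean WT CPM was highest. Green (goblet types) takes 8 of 12 members of the nucleotide sugar class (Slc35 family) and 8 of 16 metal carriers. The mitochondrial class (Slc25 family) is mostly grey (progenitor types, 11 of 22) and blue (endocrine types, 8).

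In PANETH the members summed to 1711 and 2007 CPM in WT, the least of the 12 types, and to 2188 and 3320 CPM in APC-KO. The 6 defining Paneth markers found in the files made up 400100 and 386500 CPM of the same WT sums, and 320200 and 276400 in APC-KO. How far the marker share sets the members' CPM was not tested, but with TMM factors 4 members were lowest in PANETH. PANETH-PRE was the highest type of 8 members, among them Slc38a10 with 127 and 124 CPM, and Slc19a1, the reduced folate carrier, with 48.7 and 57.2 CPM.

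For the comparison of genotypes, UMIs were summed per library and tested with edgeR's quasi-likelihood test over all genes. No member had an adjusted p under 0.05 in the sums of all cells (99 members tested), EC (88), GOBLET (83), GOBLET-PRE (99) or the Paneth types together (99). DESeq2 called 0 in each as well, but it gave an adjusted p to only 11 of 88 members in EC and 2 of 99 in the Paneth types. Its unadjusted p was under 0.05 for 1 member in GOBLET-PRE and for 0 in the other 4 sums. Over all genes, 0, 0, 0.0837, 0.00974 and 0.663% were called in these fits. An unadjusted p under 0.05 was reached by 2, 8, 7, 3 and 12 members, or 2.02, 9.09, 8.43, 3.03 and 12.1%, beside 3.71, 8.39, 11.2, 7.95 and 14.8% of all genes. The members' shares at that level thus lay near or below those of all genes. The median log2 fold change of APC-KO over WT among members lay between -0.05 and 0.03, and that of all genes between -0.00205 and 0.0133. TMM factors matter here: the median log2 ratio of plain CPM over all genes was 0.50 in the Paneth types, 0.17 in GOBLET and -0.12 in GOBLET-PRE, so differences are given relative to it and levels are TMM-scaled CPM.

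**Figure D4:**
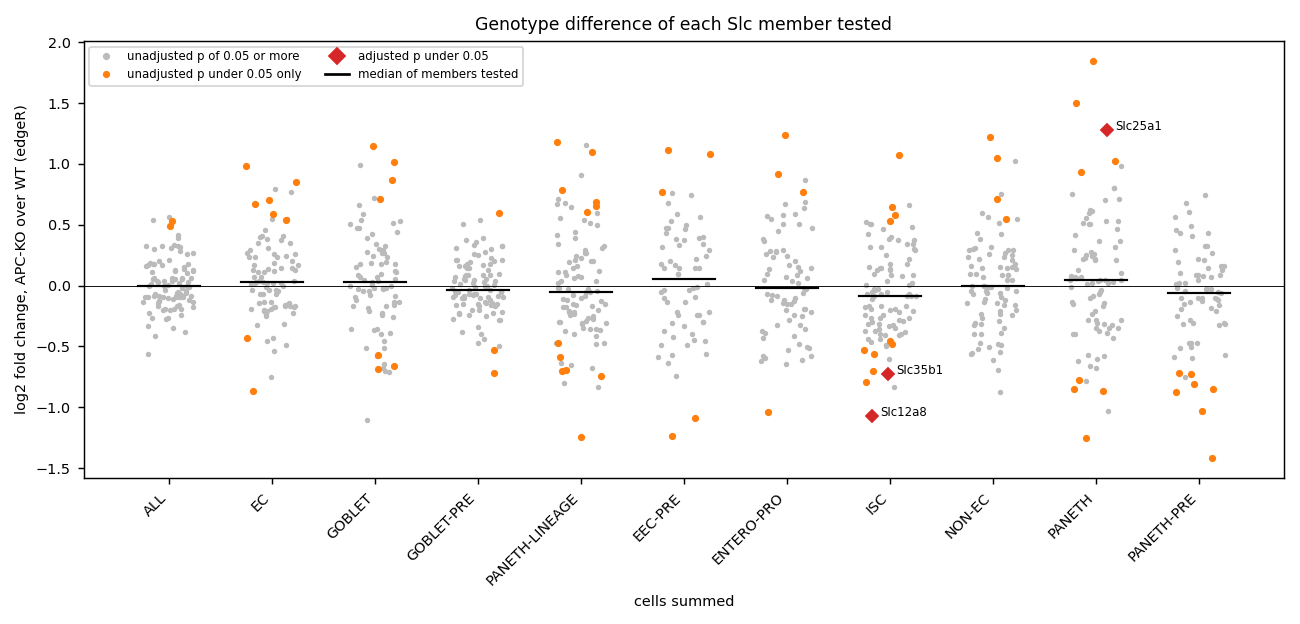
Log2 fold change of APC-KO over WT from edgeR (vertical axis) for each member tested, in sums of all cells and of 10 cell types or pooled types (horizontal axis, jittered). Grey points have an unadjusted p of 0.05 or more, orange ones under 0.05, red diamonds an adjusted p under 0.05, and black bars are medians. The medians lie near 0, and 3 diamonds appear, 2 in ISC and 1 in PANETH.

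Values behind these fits follow for members with large differences, a mean of at least 20 CPM and no overlap between the groups. Slc30a4, a zinc exporter, had 26.1 and 23.6 CPM in GOBLET of WT and 35.96 and 61.9 in APC-KO, from 8 to 60 UMIs. On the log2 scale the difference was 1.15 (SE 0.32, adjusted p = 0.269 by edgeR). Both APC-KO libraries lay above both WT libraries. In GOBLET-PRE it had 25.5 and 22.4 CPM in WT and 35.2 and 36.8 in APC-KO, and over all cells 19.8 and 19.98 against 30.8 and 27.03, with no overlap in either. Its log2 fold changes there were 0.60 and 0.53. Slc25a11, the mitochondrial oxoglutarate carrier, had 86.8 and 102 CPM in EC of WT and 54.4 and 50.5 in APC-KO, a difference of -0.86 on the log2 scale (SE 0.23, adjusted p = 0.396 by edgeR). Slc31a1, a copper importer, had 59.7 and 62.5 CPM in the Paneth types of WT and 31.9 and 39.1 in APC-KO, a difference of -0.69 on the log2 scale (SE 0.21, adjusted p = 0.153 by edgeR). That pool differed in make-up: PANETH-PRE cells were 53.5 and 32.9% of it in WT and 40.7 and 68.7% in APC-KO, and the Paneth marker list stood at 320600 and 338500 CPM in WT and 237400 and 136400 in APC-KO (6 of 6 genes detected). Fitted singly, Slc31a1 changed by -0.87 in PANETH-PRE and -0.31 in PANETH, neither passing the adjustment. Slc9a3r1, a scaffold of apical membrane proteins, had 74.6 and 89.9 CPM in GOBLET-PRE of WT and 61.3 and 53.8 in APC-KO, and its log2 fold change was -0.53. Slc25a4 had 48.4 and 48.7 CPM over all cells of WT and 39.5 and 35.3 in APC-KO, and its log2 fold change was -0.39. NON-EC cells, where it is highest, made up 6.34 and 4.92% of kept cells in WT, 3.65 and 3.48% in APC-KO, and their part in that difference was not tested. Within single types its log2 fold change ranged from -0.46 in EEC-PRE to 0.17 in GOBLET-PRE. None of these differences passed the adjustment, although the groups did not overlap. Across all cells 15 of 99 members had both APC-KO values above both WT values and 9 had both below, beside 14.4% and 16.7% of all genes tested.

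A further 6 types had 11 to 16 cells in APC-KO replicate 1, so their fits are imprecise. In them edgeR called 3 members: 2 in ISC, 1 in PANETH, and none in EEC-PRE, ENTERO-PRO, NON-EC and PANETH-PRE, where 0.654, 0.0788, 0.113 and 1.53% of all genes were called. Members with an unadjusted p under 0.05 numbered 5 of 66 in EEC-PRE (8.81% of all genes), 4 of 75 in ENTERO-PRO (7.62%), 12 of 97 in ISC (12.2%), 4 of 86 in NON-EC (8.9%), 9 of 88 in PANETH (12.1%) and 7 of 73 in PANETH-PRE (12.1%). GP, SEC-PRO and TUFT, with 5 to 8 cells in that library, were not fitted. Both members called in ISC, where 3.57% of all genes were called, were fitted lower in APC-KO. Slc12a8 (chromosome 16, 33517328 to 33664135, plus strand) had 106 and 28 UMIs in WT and 1 and 73 in APC-KO (replicates 1 and 2), that is 31.5 and 19.4 against 12.9 and 12.8 CPM. It fell by 1.07 on the log2 scale (SE 0.30, adjusted p = 0.0197 by edgeR). The APC-KO value of replicate 1 rests on 1 UMI. Slc35b1 (chromosome 11, 95384692 to 95391776, plus strand) had 219 and 99 UMIs in WT and 9 and 210 in APC-KO, or 65.0 and 68.8 against 116 and 36.9 CPM. The fitted change was -0.73 (SE 0.23, adjusted p = 0.0473 by edgeR), but the smaller APC-KO library lay above both WT libraries and the groups overlapped. Without APC-KO replicate 2 the change turned to 0.79, so no direction is drawn for Slc35b1. In the same ISC sums, the goblet marker list stood at 8994 and 4960 CPM in WT and 3549 and 5453 in APC-KO, with 7 of 7 genes detected, and the Paneth list at 3608 and 3253 against 435 and 1888, with 6 of 6 detected. The part of these cell contents in the change of Slc12a8, which is high in goblet types, was not tested.

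In PANETH, 1 of 88 members tested was called, beside 1.41% of all genes. Slc25a1, the mitochondrial citrate carrier, which exports citrate for fatty acid synthesis (chromosome 16, 17925223 to 17928219, minus strand), had 36 and 44 UMIs in WT and 9 and 189 in APC-KO, or 32.2 and 24.3 CPM in WT and 48.6 and 73.4 in APC-KO. It rose by 1.28 on the log2 scale (SE 0.30, adjusted p = 0.0346 by edgeR), and both APC-KO libraries lay above both WT libraries. In those sums the goblet list had 30170 and 18870 CPM in WT and 30840 and 76980 in APC-KO (7 of 7 genes detected), and the ENTERO-PRO list 184 and 169 against 1431 and 496 (9 of 9 detected). The part of these in the change of Slc25a1 was not tested. The calls were not stable, since leaving out either WT library, or APC-KO replicate 2, ended all 3. Subtracting free RNA, or thinning cells to 2000 UMIs, ended the calls of Slc35b1 and Slc25a1 but not that of Slc12a8. DESeq2 gave none of the 3 an adjusted p, and its unadjusted p was 0.0382 for Slc25a1 in PANETH, 0.301 for Slc12a8 and 0.845 for Slc35b1 in ISC.

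The same members can be set side by side over the 9 types fitted singly, with the limit that every type comes from the same 4 libraries, so that 9 types are not 9 replicates. Slc25a1 had a positive log2 fold change in 9 of 9 types, from 0.16 in GOBLET-PRE to 1.28 in PANETH, with an unadjusted p under 0.05 in 5. In GOBLET it had 60.0 and 55.0 CPM in WT and 71.9 and 121 in APC-KO, and in EC 81.1 and 67.7 against 101 and 119, without overlap in either. Its groups overlapped in EEC-PRE, ENTERO-PRO and PANETH-PRE. Slc4a7 was positive in 9 of 9 as well, from 0.09 in EEC-PRE to 1.02 in PANETH, with an unadjusted p under 0.05 in 5. In EC it had 129 and 128 CPM in WT and 163 and 202 in APC-KO, while its groups overlapped in EEC-PRE and PANETH-PRE. Slc7a1, a carrier of cationic amino acids, was positive in 9 of 9, from 0.13 in GOBLET-PRE to 1.12 in EEC-PRE, and in GOBLET had 14.4 and 14.1 CPM in WT against 35.96 and 26.8 in APC-KO. Its groups overlapped in PANETH, ENTERO-PRO and NON-EC, and APC-KO replicate 1 had 0 UMIs in the last pair. There it had 54.7 and 28.4 CPM in WT against 0 and 73.2 (ENTERO-PRO), and 66.6 and 50.6 against 0 and 77.6 (NON-EC). Slc12a8 was the member with a negative value in 9 of 9, from -0.06 in EEC-PRE to -1.07 in ISC. Its groups overlapped in GOBLET, PANETH, PANETH-PRE, EEC-PRE, ENTERO-PRO and NON-EC. These 4 were among 47 members tested in every type, so that 6.38% were positive and 2.13% negative throughout, beside 9.77% and 6.47% of 4248 genes tested in every type. Slc9a3r1 was negative in 8 of 9. Slc35f5 was negative in 8 of 8, down to -1.42 in PANETH-PRE. In the Paneth types its APC-KO libraries disagreed, with 26.1 and 22.9 CPM in WT and 35.4 and 8.21 in APC-KO. The groups also overlapped in PANETH-PRE, GOBLET and NON-EC. In PANETH and ENTERO-PRO both APC-KO values lay below both WT values. Apart from Slc25a1 in PANETH and Slc35b1 and Slc12a8 in ISC, no member in any type passed the adjustment.

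**Figure D5:**
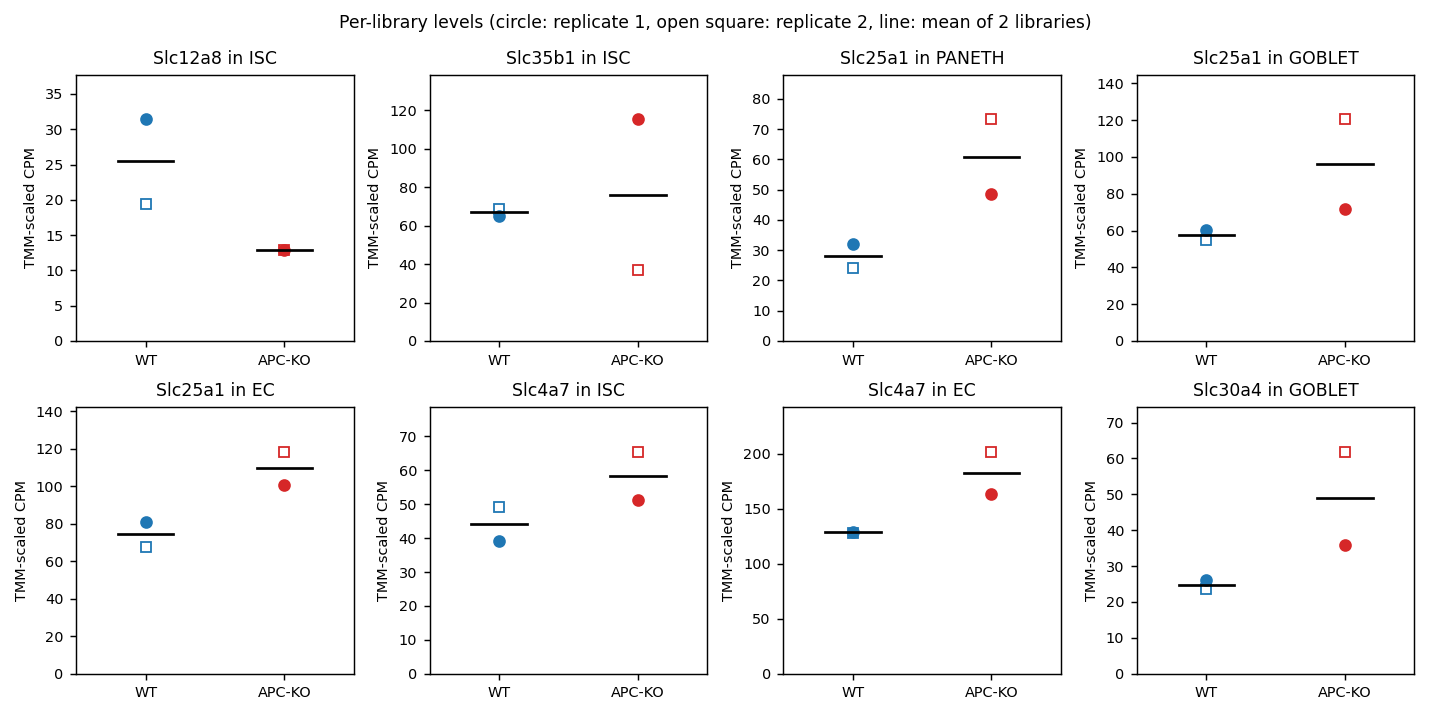
TMM-scaled CPM (vertical axis, linear, from 0) of members in named cell sums, with 1 point per library (circles replicate 1, open squares replicate 2) and a line at the mean of 2 libraries, for WT (blue) and APC-KO (red). Slc35b1 in ISC has APC-KO points at 116 and 36.9 on either side of WT, whereas Slc25a1 in PANETH, GOBLET and EC has both APC-KO points above both WT points.

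Without APC-KO replicate 1 the count of calls grew. The lone APC-KO library is assumed in this fit to vary as the WT pair does. Over all cells 4 members were called (3.48% of all genes): Slc35f5 at -1.04, Slc35c1 at -0.86, Slc37a1, a glucose-6-phosphate carrier, at -0.73 and Slc4a4 at 1.13 on the log2 scale. Over all cells Slc4a4 had 18.6 and 14.1 CPM in WT and 9.06 and 35.8 in APC-KO, and Slc35f5 23.7 and 29 against 31.5 and 12.8, so the APC-KO libraries lay on opposite sides of WT for both. Slc37a1 had 45.8 and 46.99 against 61.95 and 28.04, likewise on opposite sides, and Slc35c1 had 55.2 and 60.1 against 56.5 and 31.9, with the smaller library within WT. With all 4 libraries the changes were -0.34 for Slc35f5, -0.42 for Slc35c1, -0.09 for Slc37a1 and 0.56 for Slc4a4, none passing the adjustment. The summed ISC marker list moved the same way as Slc4a4, at 945 and 710 CPM in WT and 304 and 1279 in APC-KO (6 of 6 genes detected), and its part in that difference was not tested. In EC, 3 members were called (4.31% of genes): Slc25a11 at -0.90, Slc4a7 at 0.64 and Slc17a5 at 1.13. In the Paneth types 2 were called (4.85% of genes), Slc35f5 at -1.60 and Slc35b1 at -1.05, and in GOBLET and GOBLET-PRE none (0.316 and 0.429% of genes). In the types with few cells 14 calls were made: 2 in EEC-PRE (3.86% of genes), 2 in ENTERO-PRO (5.17%), 6 in ISC (7.33%), 1 in NON-EC (3.92%), 3 in PANETH (2.69%) and 0 in PANETH-PRE (0.0439%). Among them Slc25a1 was higher in PANETH by 1.36 and in ISC by 0.52, Slc4a7 was higher in ISC by 0.60 and in ENTERO-PRO by 0.90, and Slco3a1 was higher in ISC by 0.70. Slc12a8 and Slc35b1 in ISC remained called, at -1.08 and -0.86.

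As a comparison outside the Slc genes, 45 pumps, channels, ABC transporters and aquaporins were listed. Of these 37, 25, 21, 29 and 27 were tested in all cells, EC, GOBLET, GOBLET-PRE and the Paneth types, and edgeR called none. In the types with few cells it called Clca1, a goblet secretory protein, in EEC-PRE (log2 fold change 1.97, 16 tested) and PANETH-PRE (2.16, 18 tested), and the water channel Aqp4 in ISC (0.91, 31 tested), all higher in APC-KO. The goblet marker list, which includes Clca1, stood at 12240 and 7508 CPM in EEC-PRE of WT and 12050 and 26090 in APC-KO, and in PANETH-PRE at 84690 and 53760 against 106200 and 74960 (7 of 7 genes detected in each). Its part in these calls was not tested.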

How the data were processed

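Per the labels' protocols, libraries followed the 10x Genomics single-cell 3' v3.1 procedure. Cell Ranger 3.0.2, STAR and the build mm10 are named in the submitters' processing notes. The deposited matrices hold UMI counts per gene and barcode, per the file headers. The authors' deposited per-cell tables give UMI and gene counts, the percent of UMIs from mitochondrial genes, and, as other values, the library and the cell type (12 names). How cells were filtered, named or screened for doublets was not given in the sources used here, and no doublet caller was run.

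UMIs of kept cells were summed per library and type. Genotypes were tested in edgeR 4.0.16 under R 4.3.3 (TMM factors, filterByExpr, quasi-likelihood test, Benjamini-Hochberg adjustment over all genes at 0.05) where each library had at least 20 cells, or 10 for the types with few cells. PANETH and PANETH-PRE were also pooled as Paneth types. Scripts were tested on simulated data. DESeq2 1.42.0 was an alternative. Others were cells thinned to 2000 UMIs or with at least that many, and 5% of each sum subtracted as free RNA (barcodes with 1 to 50 UMIs). Positions come from GENCODE vM21 (GRCm38), matched by gene ID for all 99 members; 31 overlap another listed gene, 4 of them on the same strand.

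The members and gene lists were chosen with earlier results of these data known. Named were members called in a fit, members marking a type, those with the largest differences without overlap at a mean CPM of at least 20, the 10 with the most UMIs, those next to the limit, and 20 textbook carriers. Other names were chosen after values were seen. The values of 1 member are counted in all summaries but are not reported here.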

Additional observations from a re-analysis of the deposited data

Results flagged for a closer look

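Flagged here is a pair of members from EC, GOBLET and the Paneth types. All their APC-KO libraries lay on one side of WT in one type and on the other side in another. The pair is not a full list over the types with few cells. Slc38a1, for example, was higher in both APC-KO libraries in ENTERO-PRO (log2 fold change 0.769) and lower in both in EEC-PRE (-0.492). No share over all genes is given for this pattern. The difference between the types was not tested, and none of these values passed the adjustment in edgeR. Slc17a5, the lysosomal sialic acid exporter, was higher in both APC-KO libraries in EC, with a log2 fold change of 0.983, and lower in both in GOBLET, with -0.714. The APC-KO values in GOBLET rest on 5 and 17 UMIs. Slc25a5, an ADP/ATP carrier, was higher in both APC-KO libraries in the Paneth types, with a log2 fold change of 0.325, and lower in both in GOBLET, with -0.688. Fitted singly it was 0.556 in PANETH and 0.042 in PANETH-PRE, where its WT level was 372 and 389 CPM against 103.7 and 133 in PANETH. PANETH-PRE cells made up 53.5 and 32.9% of the Paneth types in WT and 40.7 and 68.7% in APC-KO, and the part of this make-up was not tested.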

How the results depend on the processing

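Counts of called members in all cells, EC, GOBLET, GOBLET-PRE and the Paneth types stayed at 0 in every setting run but these. Without APC-KO replicate 1 they were 4 in all cells, 3 in EC and 2 in the Paneth types, and with no filter on low counts 2 in the Paneth types. With one library left out the counts ranged from 0 to 4, 0 to 3 and 0 to 2 in these. The 3 calls in types with few cells became 0 with a replicate block, 1 with free RNA subtracted, and 0 to 14 with one library left out. These counts cover all members tested in those types, so a call in another setting need not be one of the 3. The DESeq2 Wald test counted 0 in those types, but all 3 had no adjusted p in it, so they are not counted as lost. The 14 came without APC-KO replicate 1, while leaving out WT replicate 1 or 2 gave 0 and APC-KO replicate 2 gave 1. The 3 members marking a type became 9 at 1.5-fold, 1 at 3-fold, 7 with TMM factors over types and 12 when compared only outside the group of types (the last pair chosen after seeing the data), and 5 to 7 with one WT library left out. Of 61 named log2 fold changes, 59 kept their sign in every setting run. Without APC-KO replicate 2, Slc35a3 in all cells turned to 0.009 and Slc35b1 in ISC to 0.793, and over the libraries left out in turn they ranged from -0.320 and -0.856 up to those values. The cause was not tested.

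No pairing of libraries by replicate number was seen: the deviations of same-numbered libraries correlated at -0.246 in all cells and between -0.051 and 0.008 in the other 4 sums. With 2 libraries per genotype, and 356 kept cells in APC-KO replicate 1, these correlations cannot settle whether libraries were paired. A replicate block left 0 members called in each of these 5, and the crossed block in all cells, added after seeing the data, also called 0. With 3009636 UMIs, APC-KO replicate 1 limits the depth of every comparison of genotypes.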
